A study of Arabidopsis thaliana with 12 samples.

Results

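Expression was compared between 9 arrays from sugar-treated cells and 3 arrays from Xyl-treated control cells, to describe the response that Fru, Glc and Suc had in common. All 12 arrays of the series entered the comparison: 3 with Fru, 3 with Glc, 3 with Suc and 3 with Xyl. The cells were a hormone-free *A. thaliana* suspension culture, grown in the dark for 7 d on 87 mM Xyl as the only carbon source, and then received 1 mM of a sugar for 1 h. The control cells also received 1 mM Xyl, so every group carried Xyl from the growth medium and the groups differed in the sugar added. The members of the comparison were chosen by their treatment and not by any measured value. An unorganised, dark-grown culture has no leaves, roots or phloem, and the levels are averages over the cells of a culture, in which fewer cells of a type and less RNA per cell cannot be told apart.

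Plant cells read their carbon supply through several routes. The kinase SnRK1 is active when sugars are scarce and switches on genes of catabolism, partly through bZIP transcription factors such as bZIP63. The kinase TOR promotes growth when carbon is plentiful, and trehalose 6-phosphate, a signal metabolite that follows the level of Suc, restrains SnRK1. Xyl is a pentose that these cells use for slow growth, so that the added hexoses and Suc meet cells with a low sugar status.

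The arrays grouped by replicate before they grouped by sugar, with 67.7% of the variance on a component that set replicate 3 apart. Once the mean of each replicate was removed, the first component (24.4% of the remaining variance) did not set Xyl apart. On it the Xyl arrays lay at −5.04 to 3.11, between the Fru array (−29.66) and the Glc array (19.31) of replicate 3. On the second component (18.3%) the 3 Xyl arrays lay at −21.03 to −13.16 and all 9 sugar arrays at 0.90 to 10.32. Each array was therefore compared within its own replicate by giving limma the number as a block. The contrast was the mean of the Fru, Glc and Suc groups minus Xyl, on log2 RMA values, over 22746 probe sets. A probe set is a group of short probes that together read 1 transcript, mostly near its 3′ end. The cell type could be checked on only 2 listed marker genes with a named probe set. These were the root hair gene *EXP7*, with a Xyl mean of 2.87, and the meristem gene *CLV3*, with a Xyl mean of 2.95, and neither passed the test.

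At the unadjusted threshold of 0.002 in limma, 305 probe sets passed on the mean of the 3 sugars, against 45.5 that the threshold alone allows. Such a call does not require a response to each sugar. Of these, 214 (0.941% of all tested) were lower with sugar and 91 (0.400%) were higher. The median size was −0.41 (log2) among those lower and 0.46 among those higher, which are falls of 1.32-fold and rises of 1.37-fold. Larger changes were few, with 5 probe sets lower and 7 higher by more than 1 on the log2 scale. After Benjamini-Hochberg adjustment, 5 probe sets had an adjusted p under 0.05 in limma (0.0220%), 3 lower and 2 higher, and 166 had an adjusted p under 0.1. The first probe set outside the adjusted threshold was that of AT5G22920 (adjusted p = 0.0661 in limma).

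**Figure D1:**
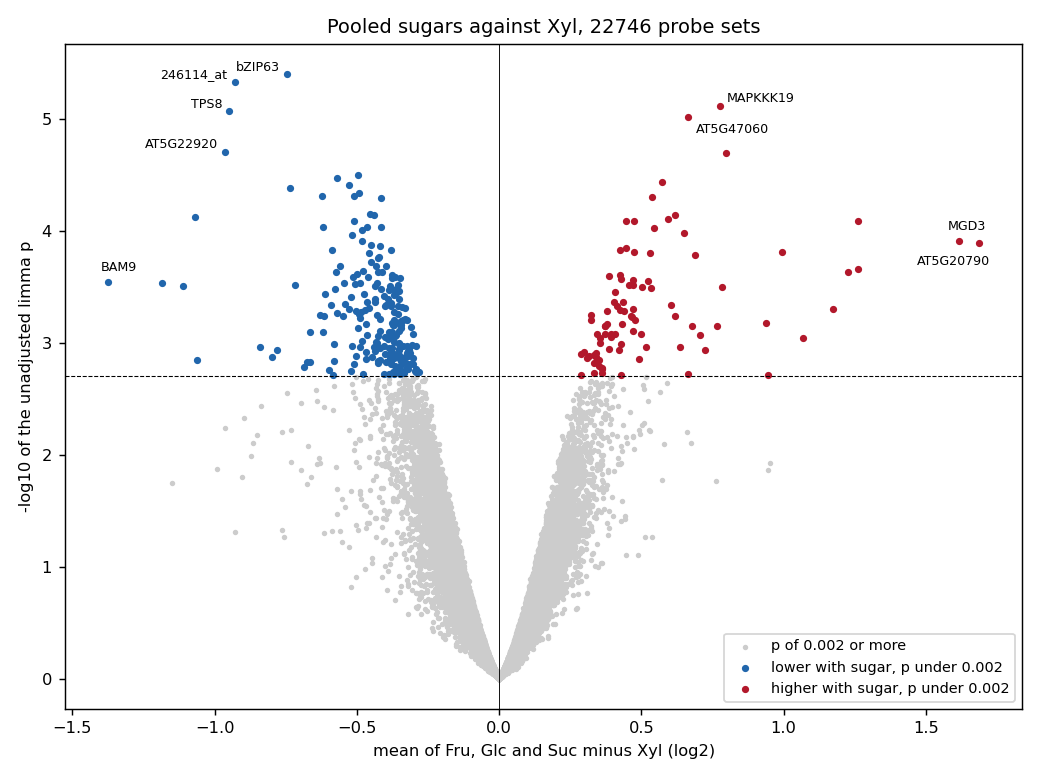
Difference between the mean of the 3 sugars and Xyl (log2, horizontal axis) against −log10 of the unadjusted limma p (vertical axis) for 22746 probe sets. Blue points are the 214 probe sets lower and red points the 91 probe sets higher with sugar at p under 0.002 (dashed line).

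The direction was shared widely across the arrays. All 305 probe sets had the same sign with each of the 3 sugars and in each of the 3 replicates, and 262 had it on all 9 sugar arrays when each was set against the Xyl array of its replicate. Among all probe sets, 6.88% had 1 direction on 9 of 9 arrays. The contrast selects for such agreement, so these counts describe the called probe sets and support nothing further. The split between directions depended on scaling: with each array centred on its own median, 147 were lower and 146 higher, although the median of all probe sets moved by only 0.03 (log2).

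*bZIP63* (AT5G28770), a target of SnRK1 that regulates the starvation response, gave the lowest p of all probe sets. Its log2 RMA values were 5.10, 5.32 and 5.46 on the Xyl arrays of replicates 1, 2 and 3, and 4.29, 4.54 and 4.72 were the lowest, median and highest of the 9 sugar arrays. The groups did not overlap, and every sugar array lay below every Xyl array. The mean fell by 0.75 (standard error 0.10, adjusted p = 0.0437 in limma), a 1.68-fold decrease. Fru, Glc and Suc gave −0.70, −0.81 and −0.72, and the sugars did not pass the F-test of a difference among them (unadjusted p = 0.639). Of 3 members of the C and S1 group bZIP factors with a named probe set, *bZIP63* alone passed. *bZIP53* (AT3G62420) had a difference of −0.36 (adjusted p = 0.208 in limma) and *bZIP44* one of 0.03 (adjusted p = 0.945).

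*TPS8* (AT1G70290) encodes a class II trehalose-phosphate synthase, a family that resembles the enzyme of trehalose 6-phosphate synthesis and is thought to act in regulation. Its values were 6.55, 7.00 and 6.04 on the Xyl arrays, and the 9 sugar arrays ran from 4.56 through a median of 5.73 to 6.31. The ranges overlapped across replicates, but each sugar array was below the Xyl array of its own replicate, by 0.26 to 1.48. The mean fell by 0.95 (standard error 0.13, adjusted p = 0.0437 in limma), or 1.93-fold. Unlike *bZIP63*, it was uneven among the sugars, with −0.71, −0.94 and −1.20 for Fru, Glc and Suc (unadjusted p = 0.0343 in the F-test). *TPS9* (AT1G23870), of the same family, had 4.30, 4.43 and 4.17 with Xyl and 3.30 to 4.11 with sugar, with no overlap. It fell by 0.62 (standard error 0.10, adjusted p = 0.0678 in limma). Both measured members of the 7 listed were therefore lower at p under 0.002, as were 0.941% of all probe sets.

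The third probe set lower at the adjusted threshold, 246114_at, has no gene name in the tables used here. It had 9.60, 9.74 and 11.25 with Xyl and 8.13, 8.98 and 10.62 as the lowest, median and highest with sugar. Every sugar array lay below its own Xyl array, and the mean fell by 0.93 (standard error 0.12, adjusted p = 0.0437 in limma). Fru, Glc and Suc gave −0.98, −1.16 and −0.64 (unadjusted p = 0.0146 in the F-test among them).

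The other 2 probe sets at that threshold were higher with sugar. *MAPKKK19* (AT5G67080) encodes a kinase of the MAP kinase kinase kinase family. It had 5.49, 5.09 and 4.14 with Xyl, and the sugar arrays ran from 4.93 through 5.72 to 6.54. Each sugar array was above the Xyl array of its replicate, by 0.35 to 1.15, and the mean rose by 0.77 (standard error 0.11, adjusted p = 0.0437 in limma). The rises were 0.92 with Fru, 0.89 with Glc and 0.52 with Suc (unadjusted p = 0.0171 in the F-test). AT5G47060, of the FCS-like zinc finger family, whose proteins bind SnRK1 subunits, had 8.36, 7.54 and 9.03 with Xyl and 8.14, 9.07 and 10.05 as the lowest, median and highest with sugar. It rose by 0.67 (standard error 0.10, adjusted p = 0.0437 in limma), again on 9 of 9 arrays. Here the order was reversed, with 0.46 for Fru, 0.66 for Glc and 0.88 for Suc (unadjusted p = 0.0115 in the F-test). AT4G17670, of the same family and picked after its values were seen, was also higher, by 0.66 (standard error 0.17, adjusted p = 0.145 in limma), on 8 of 9 arrays. It ran from 0.30 with Fru to 0.91 with Suc, and passed in 3 of 12 fits with 1 array left out.

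**Figure D2:**
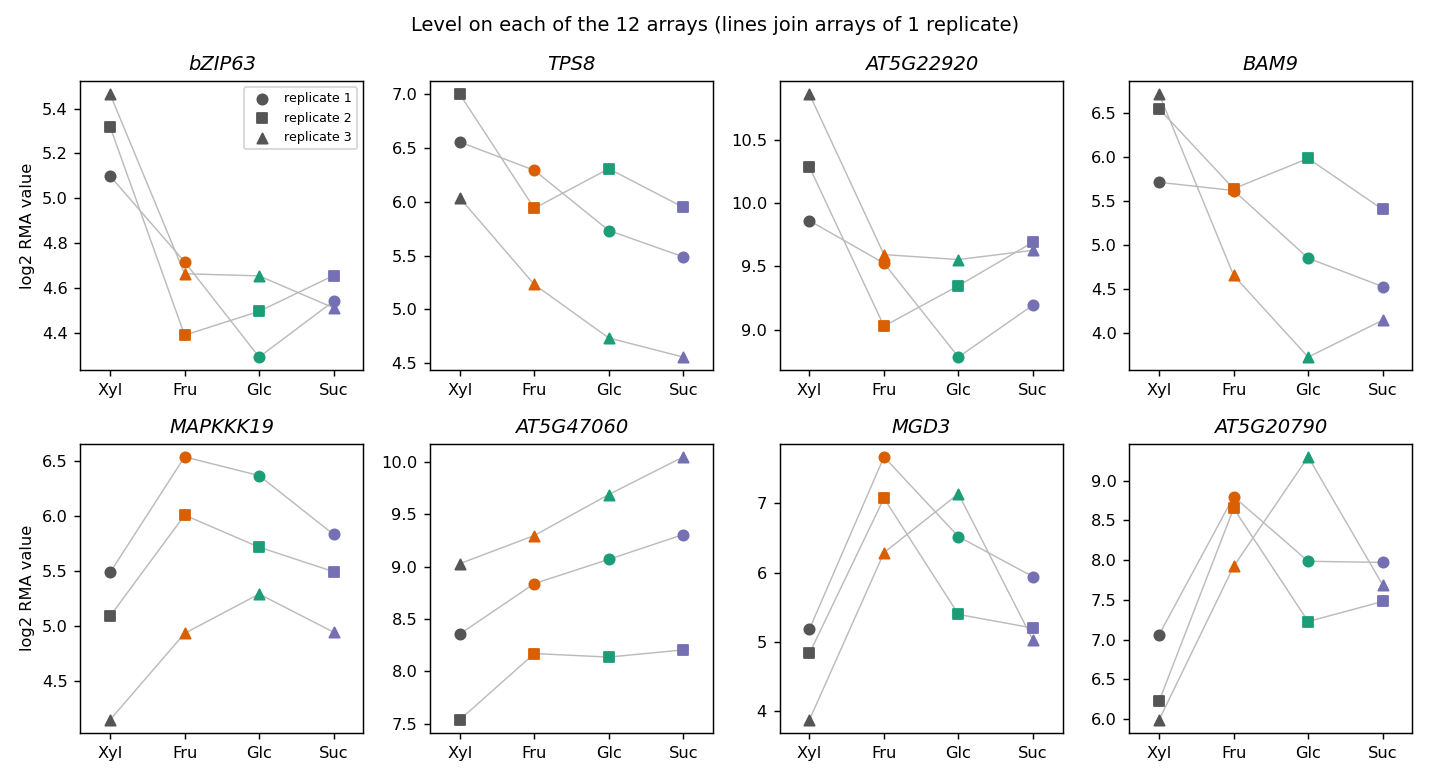
Log2 RMA value (vertical axis) of 8 genes on each of the 12 arrays, by treatment (horizontal axis), with grey lines joining the arrays of 1 replicate and symbols marking replicates 1 to 3. *bZIP63*, *TPS8*, AT5G22920 and *BAM9* lie lower on each sugar array than on the Xyl array of the same replicate, and *MAPKKK19*, AT5G47060, *MGD3* and AT5G20790 lie higher.

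Part of a list of genes known to rise when carbon runs out was lower with sugar. Of 20 listed carbon starvation genes, 8 had a named probe set, 6 were lower at p under 0.002 and none was higher. The median of the 8 was −0.90, against 0.01 for all probe sets, of which 0.941% were lower. The study had selected 7 of the 8 for their change on these same arrays, so count and median are not independent of that choice. AT5G22920, a RING zinc finger protein, had 9.86, 10.28 and 10.86 with Xyl and 8.78, 9.52 and 9.69 as the lowest, median and highest with sugar. All sugar arrays lay below all Xyl arrays, and the mean fell by 0.96 (standard error 0.15, adjusted p = 0.0661 in limma). *BAM9* (AT5G18670), of the β-amylase family, fell by 1.37 (standard error 0.28), the steepest fall of the comparison. Its values were 5.71, 6.54 and 6.71 with Xyl and 3.73 to 5.98 with sugar. Its fall differed between replicates, at −0.71, −0.87 and −2.54, and without the arrays of replicate 3 it was −0.79.

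AT3G15450, which encodes a protein resembling one induced by aluminium, had 10.03, 10.26 and 10.89 with Xyl and 8.56, 9.31 and 9.91 as the lowest, median and highest with sugar. The groups did not overlap, and the mean fell by 1.11 (standard error 0.23, adjusted p = 0.0823). *BT5* (AT4G37610), a BTB- and TAZ-domain scaffold protein, fell by 1.18 (standard error 0.24) and was lower on 8 of 9 arrays. The F-box gene *KMD4* fell by 0.58 and the thioredoxin gene *ACHT5* by 0.78, and without the Xyl array of replicate 3 these were −0.36 and −0.51 and did not pass. The 2 members that missed the threshold were *AKINB1*, a β-subunit of SnRK1, at −0.64 (adjusted p = 0.163), and the chaperone gene *J8* at −0.84 (adjusted p = 0.177). Without the Xyl array of replicate 3, 1 of the 8 members passed, with a median of −0.76, and without that of replicate 2, 3 passed, with a median of −0.91.

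Other genes with large falls included AT5G01210, of an acyltransferase family. It had 7.44, 7.86 and 8.52 with Xyl and 6.24 to 7.32 with sugar, with no overlap, and fell by 1.07 (standard error 0.19). AT4G23470, of the PLAC8 family, was even across replicates, with 7.95, 7.97 and 7.88 with Xyl and 6.81, 7.24 and 7.56 as the lowest, median and highest with sugar. It fell by 0.74 (standard error 0.12, adjusted p = 0.0678). The transcription factor gene *NAC047* fell by 0.59 (−0.39 without the Xyl array of replicate 3) and the C2-domain protein gene AT4G34150 by 0.62.

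The 2 largest rises, those of AT5G20790 and *MGD3*, belonged to genes of phosphate starvation and membrane lipid remodelling. When phosphate is scarce, plants replace part of their phospholipids with galactolipids and sulfolipids and take up or release more phosphate. Of 29 listed genes 10 had a named probe set, 9 were higher at p under 0.002 and none was lower. Their median was 0.75 against 0.01 for all probe sets, of which 0.400% were higher. The study had selected 9 of the 10 for their change on these same arrays, so neither value is an independent measure of the list. AT5G20790, a gene known for its rise in phosphate starvation, had 7.06, 6.23 and 5.99 with Xyl and 7.23, 7.97 and 9.30 as the lowest, median and highest with sugar. All sugar arrays lay above all Xyl arrays, and the mean rose by 1.69 (standard error 0.31, adjusted p = 0.079), or 3.22-fold.

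*MGD3* (AT2G11810) and *MGD2* (AT5G20410) encode the galactolipid synthases that act when phosphate is short. *MGD3* had 5.19, 4.84 and 3.88 with Xyl and 5.03, 6.29 and 7.67 as the lowest, median and highest with sugar, and rose by 1.62 (standard error 0.30). *MGD2* had 5.81, 5.18 and 4.63 with Xyl and 5.55, 6.48 and 7.50 with sugar, and rose by 1.23 (standard error 0.24). Both were higher on each of the 9 arrays than on the Xyl array of its replicate.

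*SQD1*, for sulfolipid synthesis, rose by 0.78 and *SRG3*, a glycerophosphodiester phosphodiesterase, by 0.72. The replicates gave 0.27, 0.63 and 1.27 for *SRG3*, which was 0.45 and did not pass without the Xyl array of replicate 3. Among genes for phosphate release and transport, the phosphatase gene *PS2* rose by 1.26, the phosphate transporter gene *PHT1;4* by 0.62, the acid phosphatase gene *PAP17* by 0.53 and the glycerol-3-phosphate transporter gene *G3Pp1* by 0.52. All of them were higher on 9 of 9 arrays. *PHO1;H10*, at 0.09 (adjusted p = 0.741), was the measured member that did not pass. The count depended on the arrays fitted. Without the Xyl array of replicate 3, 1 of the 10 passed, and without all arrays of replicate 3, 8 passed. The median was 0.56 in both fits. Without the Xyl array of replicate 2, 5 passed (median 0.83), and with Fru left out, 3 passed (median 0.60).

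Further rises outside that list were seen for AT3G44510, of the α/β-hydrolase family, for which a pair of probe sets gave 1.26 (standard error 0.22) and 0.99 (standard error 0.19). *LSU1* (AT3G49580), which responds to low sulfur, had 7.03, 6.58 and 7.17 with Xyl and 7.22 to 8.74 with sugar, and rose by 0.94 (standard error 0.21). AT1G50110, a branched-chain aminotransferase, rose by 0.77, and was 0.49 without the Xyl array of replicate 3. AT3G25400, of a nucleotide pyrophosphatase family, had 5.11, 4.99 and 5.21 with Xyl and 5.39, 5.63 and 5.87 as the lowest, median and highest with sugar. It rose by 0.54 (standard error 0.09, adjusted p = 0.0678) with no overlap between the groups.

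**Figure D3:**
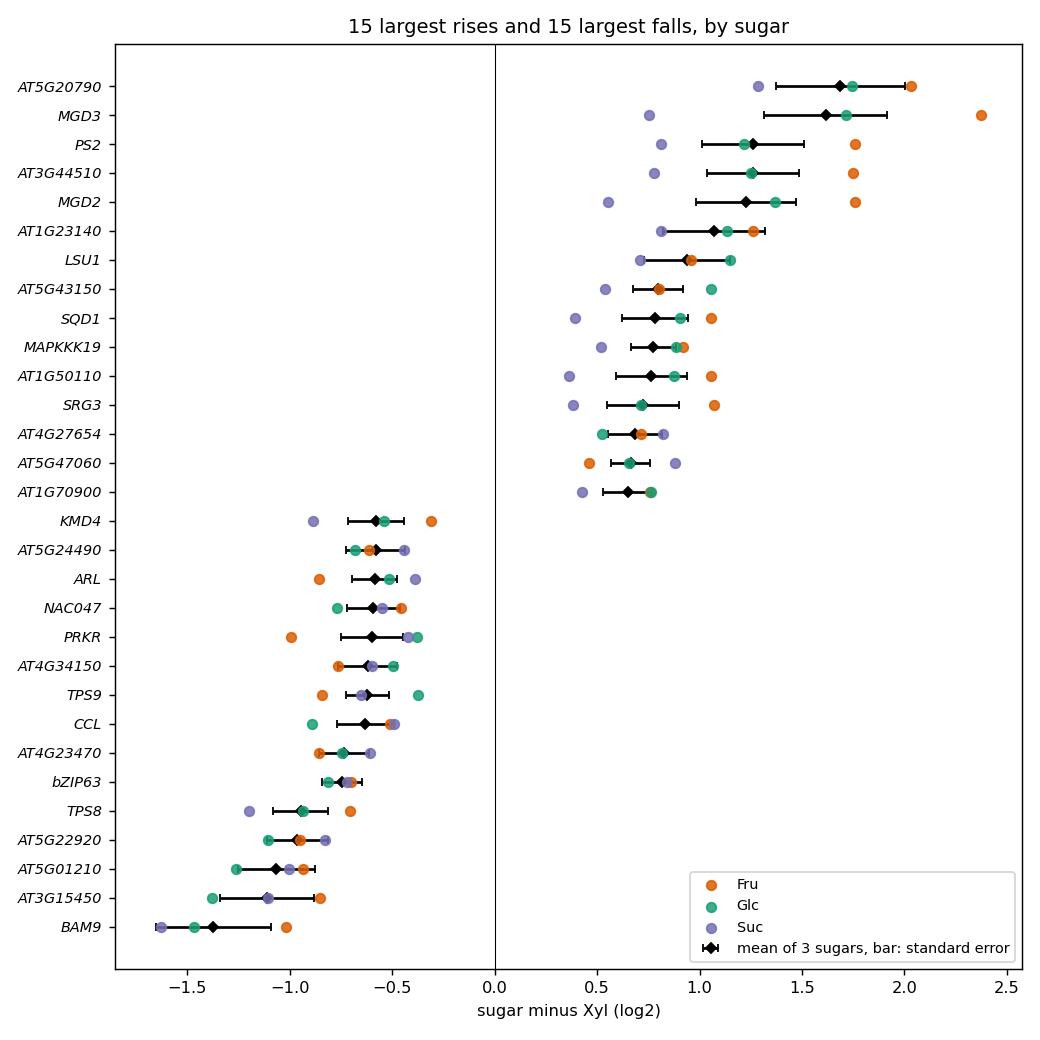
Difference from Xyl (log2, horizontal axis) for the 15 largest rises and 15 largest falls, with Fru, Glc and Suc as coloured points and their mean as a black diamond with its standard error. *bZIP63* shows 3 sugars close together (−0.81 to −0.70), and *MGD3* ranges from 0.76 with Suc to 2.37 with Fru.

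The arrays allowed a test of whether the sugars differed from one another, which does not use the Xyl means. In the F-test of limma among Fru, Glc and Suc, 0 probe sets reached an adjusted p under 0.05 (lowest 0.136), and 2389 had an unadjusted p under 0.05 (10.5%). Among the 305 called probe sets, 97 had an unadjusted p under 0.05 in this F-test (31.8%). These were 56 of those lower (26.2%) and 41 of those higher (45.1%). Both tests use the same estimate of spread for a probe set. The 91 higher probe sets had median responses of 0.46 to Fru, 0.54 to Glc and 0.37 to Suc, and the 214 lower ones had −0.42, −0.41 and −0.42. The sugars share their Xyl arrays, so these medians are not independent.

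The 9 phosphate and lipid genes that rose each had their largest mean response with Fru, as had 34 of all 91 higher probe sets, with list medians of 1.06 with Fru, 0.81 with Glc and 0.39 with Suc, and 8 of the 9 had an F-test p under 0.05. The order was not the same in each replicate: the Fru array was the highest of the 3 sugar arrays for 9 of the 9 in replicates 1 and 2, but for 1 of the 9 in replicate 3, where the Glc array was the highest for the other 8. For *MGD3* the differences from Xyl were 2.37, 1.72 and 0.76 (unadjusted p = 0.00251 among the sugars). The carbon starvation list had medians of −0.53 with Fru, −0.98 with Glc and −1.09 with Suc, and 3 of the 6 that fell had an F-test p under 0.05. For *BT5* the values were −0.60, −1.26 and −1.70 (unadjusted p = 0.00870).

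The genes with the smallest F among those called gave nearly equal responses with all 3 sugars. AT4G39680, a SAP-domain protein gene, had −0.49, −0.48 and −0.48 with Fru, Glc and Suc. AT1G10740 had −0.38 with each of Fru and Glc and −0.37 with Suc. *ILP1* and *BSL1*, a phosphatase gene of brassinosteroid signalling, fell by 0.34 and 0.35, and AT1G18270 fell by 0.35. Equal action of the sugars is not shown by such a p. The genes with the largest F were less uniform. The plastid gene *petA* had −0.05 with Glc and −1.47 with Suc, with Fru between them (unadjusted p = 0.000223), and *WRKY22*, a defence transcription factor gene, had −0.20, −0.67 and −0.17 (unadjusted p = 0.000259). AT3G03790 had 0.71, 0.56 and 0.02 (mean 0.43, and 0.25 without the Xyl array of replicate 3), AT5G04080 had 0.18, 0.69 and 0.41, and *PSRP3/1* had −0.62, −0.33 and −0.09. These 5 were chosen for their F, so their unevenness is a description.

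Long genes were frequent among those lower with sugar. The median gene length was 3975 bp for the 144 lower probe sets with a known length, 1679 bp for the 76 higher ones and 2123 bp for all 13564. The top 10% of genes by length (4285 bp and more) held 66 of the 144 (45.8%) and 1 of the 76 (1.32%). In that class 4.87% of probe sets were lower and 0.0737% higher, whereas in the shortest 10% (up to 898 bp) none of 1358 was lower and 0.589% were higher. The median difference ran from 0.05 (log2) in the shortest class to −0.08 in the longest, and the longest class was below 0 in each replicate (−0.07, −0.13 and −0.06) and with each sugar (−0.08, −0.08 and −0.10). RNA quality was read from 6 control probe set pairs for the 3′ and 5′ ends of actin, GAPDH and ubiquitin transcripts. Their mean 3′ minus 5′ difference was 1.81 to 2.04 (log2) on the Xyl arrays and 1.79 to 2.04 on the sugar arrays, a difference of −0.05 (two-sided exact permutation p = 0.375 over 64 arrangements of the Xyl label within replicates). The single pairs ran from −0.12 to 0.06. The lowest p was that of 1 ubiquitin pair, at −0.09 (exact permutation p = 0.0469, Benjamini-Hochberg adjusted p = 0.281 over the 6 pairs). Its replicates gave −0.04, −0.14 and −0.10. The part of RNA quality and of transcript length in the falls of long genes was not tested.

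**Figure D4:**
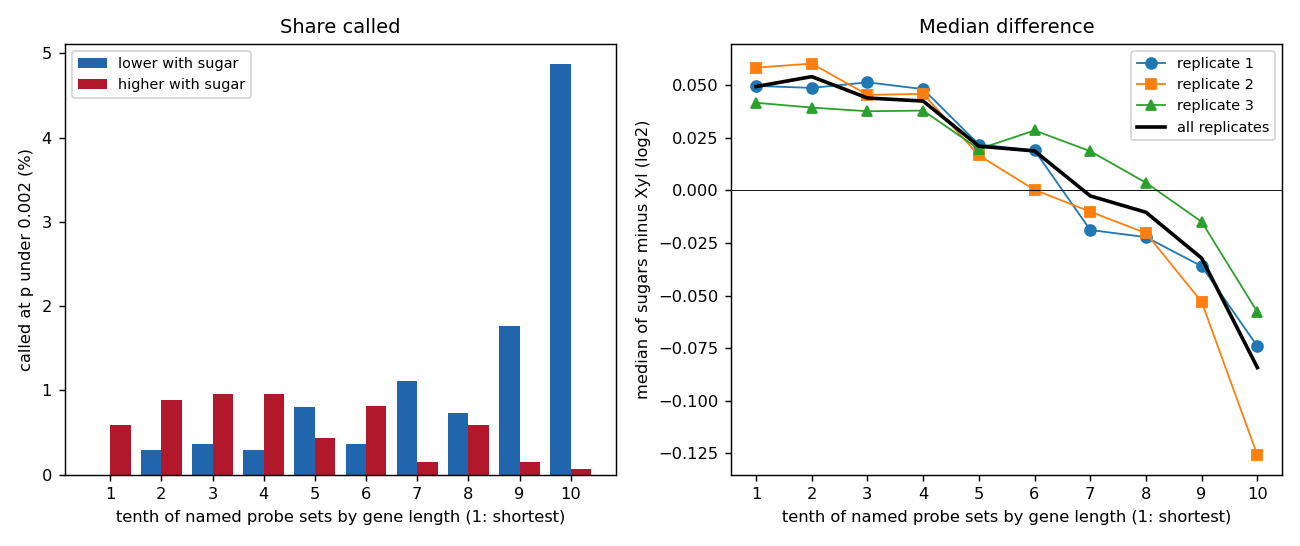
Left, share of probe sets called lower (blue) or higher (red) with sugar at p under 0.002 (percent) in each of 10 equal classes of 13564 named probe sets by gene length. Right, median difference between sugars and Xyl (log2) in each class, for each replicate and for all, which falls from 0.05 in the shortest to −0.08 in the longest.

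Several groups of cellular machinery belonged to these long genes. Of 26 listed genes of chromatin and transcription, 12 had a named probe set and 8 were lower, with a median of −0.37 and a median length of 7238 bp. Over all probe sets 0.941% were lower, and 4.87% in the longest 10% of genes. The study's own selection, made on these arrays, held 11 of the 12. *NRPB1*, the large subunit of RNA polymerase II, had 6.29, 6.03 and 5.63 with Xyl and 5.01, 5.34 and 5.92 as the lowest, median and highest with sugar, and fell by 0.51 (standard error 0.09, adjusted p = 0.0678). The mediator subunit gene *SWP* fell by 0.47, the histone demethylase gene *PKDM7D* by 0.44 and the chromatin remodeller gene *SYD* by 0.40. All 12 differences were negative.

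Of 19 listed genes of endomembrane trafficking, 13 had a named probe set and 10 were lower, with a median of −0.35 and a median length of 6752 bp. Over all probe sets 0.941% were lower, and 4.87% in the longest 10% of genes. The study's selection held 11 of these 13. *VPS15*, a subunit of the kinase complex that makes phosphatidylinositol 3-phosphate, fell by 0.41, *GNOM*, which activates small GTPases in vesicle budding, by 0.39, and the dynamin genes *DRP2A* and *DRP2B* by 0.35 and 0.37. The 4 measured ubiquitin ligase genes, all in that selection, were all lower, *BIG* by 0.53, *PRT6* by 0.39, *UPL3* by 0.38 and *UPL5* by 0.32. Their median length was 9076.5 bp. *BIG* spans 17804 bp and had 6.73, 7.11 and 6.93 with Xyl and 6.02, 6.43 and 6.69 as the lowest, median and highest with sugar, with no overlap.

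*TOR* (AT1G50030), 17748 bp long, had 6.09, 6.68 and 6.60 with Xyl and 5.58, 6.11 and 6.26 as the lowest, median and highest with sugar. It fell by 0.49 (standard error 0.10, adjusted p = 0.0823) and was lower on 8 of 9 arrays. Of 6 measured genes of the TOR and SnRK1 complexes it alone passed, and *RAPTOR1A* and *RAPTOR1B*, which encode partners of TOR, had −0.38 (adjusted p = 0.261) and −0.29 (adjusted p = 0.287).

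A fit with the trend on gene length removed from each array kept some of these groups and not others. In it 2 of the 10 trafficking genes, 4 of the 8 chromatin genes and 0 of the 4 ubiquitin ligase genes still passed, *TOR* moved to −0.27 and *BIG* to −0.30, and neither passed. The 6 carbon starvation genes and the 9 phosphate and lipid genes all passed in it. Without the Xyl arrays of replicates 1, 2 and 3 in turn, 2, 2 and 3 of the trafficking genes passed, 6, 4 and 6 of the chromatin genes, and 1, 2 and 1 of the ubiquitin ligase genes.

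**Figure D5:**
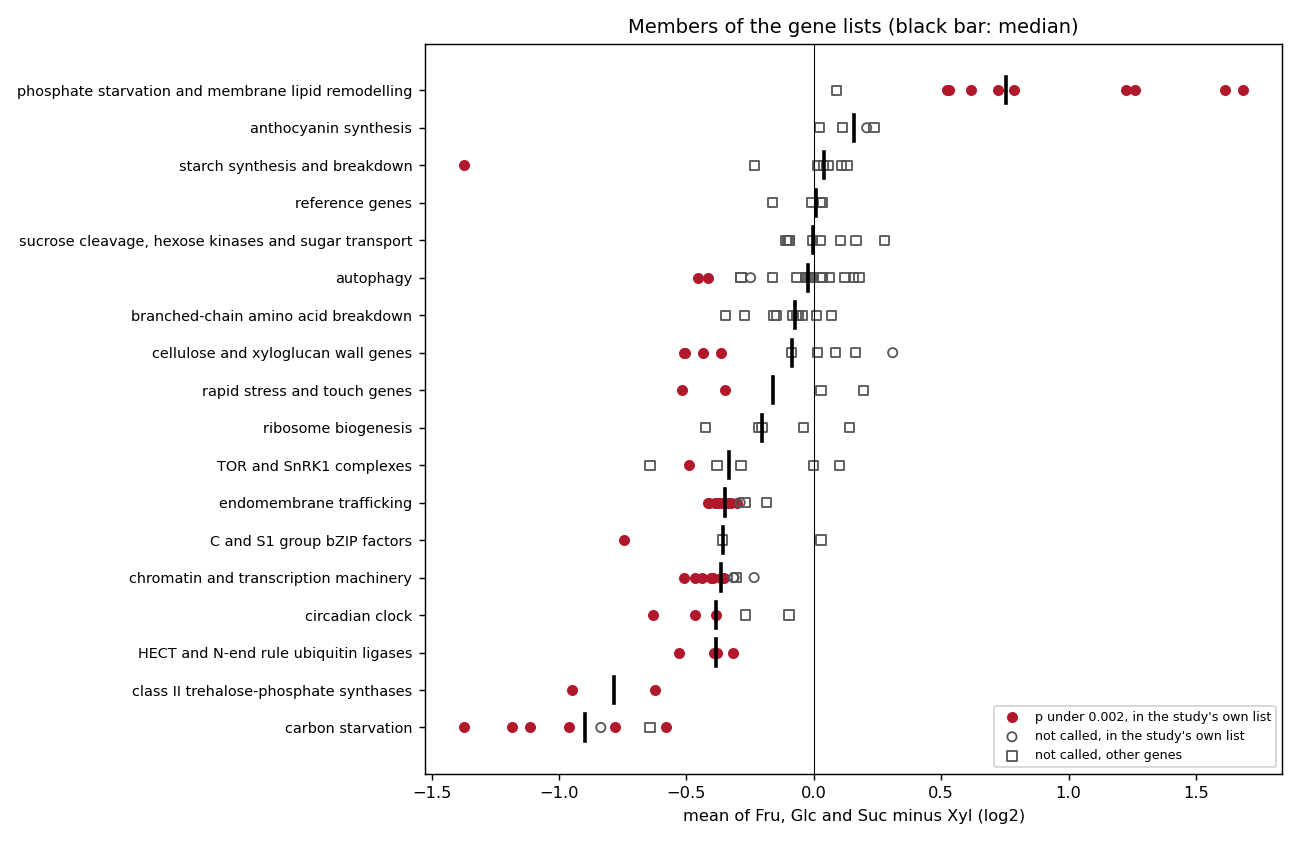
Difference between the mean of the 3 sugars and Xyl (log2, horizontal axis) for each measured member of the gene lists with 2 or more members, with a black bar at the list median. Filled circles passed p under 0.002, open symbols did not, and circles are genes of the study's own selection. The medians run from −0.90 for carbon starvation to 0.75 for phosphate starvation.

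The counts and medians of these lists are not independent evidence of their direction. The study selected 290 genes by their change on these same arrays, its selection supplied the names of 128 probe sets that the platform's annotation leaves unnamed, and every list member that passed belongs to it. Of the 305 probe sets called here, 153 were in that selection and 152 were not, 106 of them lower and 46 higher. Among the latter, 72 had a gene name. The following genes were picked from the 72 after their values were seen, and larger changes than some of theirs were left unnamed.

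AT1G33700, of the glucosylceramidase family, had 9.50, 9.33 and 7.90 with Xyl and 6.97, 8.86 and 8.98 as the lowest, median and highest with sugar. Each sugar array lay 0.35 to 0.92 below its own Xyl array, and the mean fell by 0.57 (standard error 0.09, adjusted p = 0.0678), with −0.53, −0.62 and −0.56 for Fru, Glc and Suc. *ARL* (AT2G44080), which promotes cell expansion in organs, had 4.66, 6.31 and 6.63 with Xyl and 4.17 to 6.14 with sugar, and fell by 0.59 (standard error 0.11). *WES1* (AT4G27260), which conjugates auxin to amino acids, had 6.84, 7.48 and 9.44 with Xyl and 6.20 to 9.14 with sugar, and fell by 0.55 (standard error 0.11). For both, the replicates lay far apart and each sugar array was below its own control.

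AT2G20670 fell by 0.69 and was lower on 8 of 9 arrays, with −0.42, −0.20 and −1.44 in the replicates, and was −0.31 and did not pass without the Xyl array of replicate 3. Among the rises, AT1G23140, a lipid-binding C2-domain protein gene, had 6.03, 5.33 and 6.85 with Xyl and 5.67, 7.36 and 8.56 as the lowest, median and highest with sugar. It rose by 1.07 (standard error 0.25, adjusted p = 0.107). *FHL*, for nuclear import of phytochrome A, rose by 0.64, the calmodulin-like gene *CML23* by 0.60 and *SAT32* by 0.47. The top 10% of genes by length held 39.0% of the 41 lower probe sets of this kind that had a length and 0 of the 31 higher ones.

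The clock list had 5 measured genes of 23, of which 3 were lower: *CCL* by 0.63, *COR28* by 0.47 and *ELF3* by 0.38, with *GI* at −0.27 (adjusted p = 0.244). Over all probe sets 0.941% were lower. The study's selection held 3 of these 5, 5 of the 9 wall genes, 2 of the 4 stress genes and 3 of the 20 autophagy genes. Without the Xyl arrays of replicates 1, 2 and 3 in turn, 2, 1 and 0 of the clock genes passed. Of 9 measured wall genes of 23, 4 were lower, *CSLC4*, for the xyloglucan backbone, by 0.51, *CSLE1* by 0.50, *XTH30*, which remodels xyloglucan, by 0.44 and *CSI1*, which links cellulose synthase to microtubules, by 0.36. Without the Xyl arrays in the same order 0, 2 and 0 of the wall genes passed, with median centring 1, and *XTH30* was −0.27 without the Xyl array of replicate 3. Of 4 rapid stress genes, *ERF104* fell by 0.52 and *WRKY22* by 0.35. Neither passed with the replicate as a random block, with the sugars as 1 group or without the Xyl array of replicate 3, where *ERF104* was −0.32. In the autophagy list 2 of 20 measured genes were lower, *ATG11*, an adaptor of the initiating kinase, by 0.45 and *VPS15*, and the 9 measured *ATG8* genes, between −0.29 and 0.12, did not pass.

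Other lists held no called member. For 9 measured genes of sucrose cleavage, hexose kinases and sugar transport, the differences ran from −0.11 to 0.28, with *SWEET11* at 0.28 (adjusted p = 0.346). Of 10 measured genes of branched-chain amino acid breakdown, *MCCB* had −0.27 (adjusted p = 0.172) and *MCCA* −0.35 (adjusted p = 0.305). The list medians were −0.08 for amino acid breakdown, −0.20 for 5 ribosome biogenesis genes (*NRPA1* at −0.43, adjusted p = 0.172) and 0.16 for 4 anthocyanin genes (*UF3GT* at 0.24, adjusted p = 0.421). Of 7 starch genes *BAM9* alone passed, and the others ran from −0.23 to 0.13. The xylose isomerase gene, the measured member of 3 listed for xylose use, had −0.01 (adjusted p = 0.986), and *HRA1*, a low oxygen gene, had 0.08 (adjusted p = 0.785). Genes for nitrate assimilation had no named probe set and were not analysed here.

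Reference genes gave small differences. *TUB5* (AT1G20010), a β-tubulin gene, had 5.84, 7.02 and 3.48 with Xyl and 3.17, 5.80 and 6.97 as the lowest, median and highest with sugar. Its difference was 0.03 (standard error 0.12, adjusted p = 0.956), while its level varied widely between replicates. *SAND* had −0.16 (adjusted p = 0.382), *TIP41* 0.03 and *GAPC2* −0.01. Of the other genes that the study followed by qPCR and that had a named probe set, *URH1*, for nucleoside breakdown, fell by 0.38 on 9 of 9 arrays. *MRS2-11*, a magnesium transporter gene, fell by 0.36. *PRKR* fell by 0.60 (adjusted p = 0.141 in limma), with −0.99, −0.38 and −0.42 for Fru, Glc and Suc. It passed in 4 of 12 fits with 1 array left out. AT2G22080 rose by 0.59. The remorin gene AT3G57540 had 0.43 (adjusted p = 0.163) and did not pass.

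The calls relied on comparing each array within its replicate. Without the replicate block 23 probe sets passed the threshold of 0.002 (19 lower and 4 higher), *bZIP63* among them (unadjusted p = 5.89e-05 in limma), whereas *TPS8* (unadjusted p = 0.0354), *MAPKKK19* (unadjusted p = 0.0742) and AT5G47060 (unadjusted p = 0.181) did not. Leaving out 1 array gave between 133 probe sets, without the Xyl array of replicate 3, and 462, without the Fru array of replicate 3. Of the 100 called genes followed in all 28 alternative fits, *bZIP63*, AT4G23470 and AT3G25400 passed wherever they were tested.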

How the data were processed

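RNA of 12 samples was measured on 1-colour ATH1 arrays. The authors deposited log2 RMA values, made by background correction, quantile normalization and summarising of probes; per the submitters' processing notes the tools were Expression Console of Affymetrix, RMA and limma, with versions not given in the sources used here. A second deposited table repeats these values beside the authors' fold changes, p-values and scores for their comparisons, which were not used. The methods give 3 biological replicates for each treatment and say that cell suspension was divided evenly between flasks before treatment. Deviations from group means correlated in all 18 same-numbered pairs of arrays (r from 0.772 to 0.938), so the number served as a block.

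After 64 control probe sets were left out, 22746 were fitted in limma 3.58.1 (R 4.3.3) with 4 group means and the replicate block (6 residual degrees of freedom). The contrast was the mean of 3 sugars minus Xyl, called at the methods' threshold of 0.002 and, with Benjamini-Hochberg adjustment, at 0.05. The sugars were compared by a moderated F-test in the same fit. Gene names came from the platform's annotation, the reference table of TAIR10.1 and, for 128 probe sets, the study's supplement (290 genes, matched within 1e-05); 13564 probe sets had a gene length. Coordinates and sequences are not shown, since the files state no assembly. For several probe sets of 1 gene, the brightest entered the lists. The code was tested on simulated data.

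Genes named were the 15 largest rises and falls with 1 direction on 9 of 9 arrays, list members, the 5 smallest and largest F, the qPCR genes, *TUB5* and, after seeing values, called genes outside the study's selection. The comparison and the 26 lists were chosen with earlier results of these data known. Alternatives were other treatments of the block, trended and robust variance, array weights, a t-test of all sugar arrays as 1 group against Xyl, a filter at a mean of 5 (log2), median centring, removal of a length trend, probe sets specific to 1 gene, and leaving out arrays, replicates or sugars. Marker lists for green tissue, dividing cells and xylem had no named probe set. The number of arrays limits precision.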

Additional observations from a re-analysis of the deposited data

Results flagged for a closer look

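Among 83 genes looked at, 2 had 1 sugar array far from the other 8, where chance alone gives about 1 in 20. The Glc array of replicate 3 was 1.61 (log2) above its Xyl array for AT5G43150, where the next was 0.96 and the lowest 0.28. The Fru array of replicate 2 was 1.09 above its Xyl array for *G3Pp1*, where the next was 0.67 and the lowest 0.30.

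The response differed among Fru, Glc and Suc at an unadjusted p under 0.002 in the limma F-test for 6 of these genes, and none passed after adjustment over all probe sets. They were *petA* (unadjusted p = 0.000223), *WRKY22* (unadjusted p = 0.000259), AT3G57540 (unadjusted p = 0.000377), AT3G03790 (unadjusted p = 0.000519), AT5G04080 (unadjusted p = 0.000712) and *PSRP3/1* (unadjusted p = 0.000824). AT3G57540 gave 0.25 with Fru, 0.89 with Glc and 0.16 with Suc.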

How the results depend on the processing

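The comparison gave 305 probe sets at an unadjusted p under 0.002 and 5 at an adjusted p under 0.05 in limma. All 305 kept their sign in every alternative that tested them. They had the same sign with each sugar and in each replicate, so fits without a sugar or a replicate could not reverse it. Another treatment of the block does not alter the estimates. The count of kept signs therefore supports nothing further. Without the replicate block the counts were 23 and 0 (567 at an unadjusted p under 0.05), and with the replicate as a random block they were 145 and 0. With the sugars as 1 group 1 probe set passed after adjustment, with a trended and robust variance 52, and with probe sets of a mean under 5 left out 18. Array weights gave 531 and 193, the methods' t-test gave 39 and 1, and removal of the length trend gave 171, over 13564 probe sets. Leaving out Fru or Glc gave 47 or 29 after adjustment, and leaving out Suc gave 203 and 0. Leaving out 1 array or 1 replicate gave 120 to 462 and 0 to 89. The Xyl arrays of replicates 1, 2 and 3 left out in turn gave 189, 153 and 133, the Fru array of replicate 3 left out gave 462, and replicates 1, 2 and 3 left out gave 120, 126 and 300. The share lower was 70.2%, but 50.2% with median centring, 56.7% with the length trend removed, 82.6% without the block and 55.0% without replicate 3. The cause was not tested, except that leaving out samples or probe sets reduces what is fitted.

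For the F-test among the sugars, 2389 probe sets had an unadjusted p under 0.05, 313 without the replicate block, 1470 with probe sets of a mean under 5 left out, and 1414 to 2429 with 1 replicate left out. Of 100 called genes followed, 12 passed without the block, 35 without the Xyl array of replicate 3, and 22 with each array left out in turn. Many calls depended on the arrays fitted: 133 probe sets passed without the Xyl array of replicate 3, and 300 without all arrays of replicate 3. The part of single control arrays in the lost calls was not tested. The median level was 4.81 (log2) over all probe sets, 6.41 over those lower and 6.14 over those higher. The promoter description planned was not run.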

Other observations

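Genes encoded in the plastid genome, taken by their reference identifiers after the data were seen, had 69 members with a named probe set. Of these, 2 were lower at p under 0.002 (*atpA*, by 1.06, and *petA*, by 0.84) and 0 were higher, against 0.941% and 0.400% of all probe sets. For 49 the difference was below 0 (71.0%, against 48.2% of all probe sets). *atpA* had −1.85, −0.63 and −0.71 in the replicates, and was −0.67 and did not pass without the Xyl array of replicate 1. Their median was −0.14 over the 3 sugars, −0.21 with Fru, 0.08 with Glc and −0.38 with Suc. For 35 of the 69 the F-test among the sugars gave an unadjusted p under 0.05, against 10.5% of all probe sets, and for the other 34 it did not.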
